A study of Gallus gallus with 3 samples.

Results

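The genes described here are those of the cell cycle and of proliferation in the vestibular crista of the chicken embryo. They were chosen by symbol, with earlier results of these data known. The symbols begin with MCM, CDC or ORC and a digit, or with CENP, CCNA, CCNB, CCND, CCNE, CDK, CDKN or AURK. *MKI67*, *TOP2A*, *PCNA*, *BUB1*, *PLK1* and *RB1* were taken as well. This gave 115 genes of the 15097 that have a symbol, among 30108 genes in all. Symbol families gather unlike genes, so 72 of the 115 were placed by symbol in lists of cell cycle roles. The other 43 carry a related symbol, and many of them act mainly elsewhere, such as the small GTPase *CDC42*. The split follows the lists and is not a strict division by function.

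RNA was sequenced from 3 libraries of Isa Brown chicken embryos. In a Patch-seq experiment a hair cell of a semicircular canal crista was recorded in situ and its content was then drawn into the pipette, for 1 type I hair cell at E20 and 1 type II hair cell at E19, called the type I cell and the type II cell below. The type was assigned from the presence or absence of the low-voltage activated K+ current *I*KL. The remaining library was made from whole ampullary cristae dissected at E16 and pooled from 22 embryos, and eggs were of both sexes. There is 1 library per group, so no value below has a replicate, no test between groups was possible, and the age, the amount of RNA, the library preparation and the cell content of the samples cannot be told apart.

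A dividing cell licenses its origins of replication in G1 with the origin recognition complex and the MCM helicase, is driven from phase to phase by cyclins bound to cyclin-dependent kinases (CDKs), and separates its chromosomes on kinetochores built on centromeric CENP proteins. Vestibular hair cells are postmitotic. They arise from dividing progenitors that leave the cycle, and in birds new hair cells are also made from supporting cells after hatching. CDK inhibitors of the CDKN1 family and the retinoblastoma protein *RB1* hold the cycle at G1, and in the mouse inner ear *Cdkn1b* and *Rb1* are needed for sensory cells to stay out of division.

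The libraries held 10779664 estimated reads for the type I cell, 11943061 for the type II cell and 67428006 for the whole crista, and 1971, 1995 and 12903 of the named genes had at least 1 read. Levels are given as estimated reads and as TPM, the deposited level scaled by gene length and library. Intervals are exact Poisson 95% intervals and cover counting error only, since cDNA was amplified with no molecular identifiers and reads do not stand for separate molecules. A gene without a read is listed at 0 with a limit of 3 reads, which over the 115 genes came to a median of 0.137 TPM in the type I cell, 0.130 TPM in the type II cell and 0.0340 TPM in the crista. This limit concerns the sequenced cDNA and sets none on the cell, because *HPRT1* and *TBP*, genes that every cell uses, were also listed at 0 in both hair cells and had 4593 and 4380 reads in the crista. Of 15 hair cell markers, 9 were detected in the type I cell and 8 in the type II cell, against 13.1% and 13.2% of named genes. Their summed level was 30693 and 24874 TPM against 3780 TPM in the crista, but nearly all of it was *OCM1*, with 29368, 23580 and 3289 TPM. Of the 15 markers 3 were at least 2-fold higher in both hair cells and 10 lower, against 3.79% and 75.2% of named genes. *MYO7A*, *POU4F3*, *GFI1*, *ESPN*, *PCDH15* and *CDH23* were listed at 0 in both. Markers of other cell types were mostly at 0 in the hair cells, as were most named genes. However, the glial gene *SOX10* had 2612 and 3120 reads. The collagen genes *COL1A1* and *COL1A2* had 7113 and 5292 and 3221 and 2404 reads.

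Few of the cell cycle genes were seen in a hair cell. At least 1 read was found for 12 of the 115 in the type I cell (10.4%, exact binomial 95% interval 5.51 to 17.5), against 13.1% of all named genes, and for 11 in the type II cell (9.57%, 4.87 to 16.5), against 13.2%. In the whole crista 111 were detected (96.5%, 91.3 to 99.0), against 85.5% of named genes. Both hair cells had a read for 9 of them (7.83%, 3.64 to 14.3), against 11.8%, and 101 had no read in either. The intervals in the hair cells included the shares of all named genes, so these counts are near the background.

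The 115 genes stood somewhat higher in the crista than the typical named gene, with a median of 16.9 TPM against 12.7 TPM for all named genes, so detection was also compared at like levels. Of the 75 with at least 10 TPM in the crista, 10 were detected in the type I cell (13.3%, 6.58 to 23.2) and 9 in the type II cell (12%, 5.64 to 21.6), against 20.9% of the 8219 named genes of that level in either cell. Both cells had a read for 8 of the 75 (10.7%, 4.72 to 19.9), against 19.3%. In the band from 10 to 100 TPM in the crista, 5 of 66 were detected in the type I cell (7.58%, 2.51 to 16.8) and 4 in the type II cell (6.06%, 1.68 to 14.8), against 15.3% and 15.2% of named genes, and at 100 TPM or more 5 of 9 in each cell (55.6%, 21.2 to 86.3), against 42.0% and 42.3%. In the band from 10 to 100 TPM the interval of the type II cell lay below the share of named genes and that of the type I cell included it. No test of these differences was made, since genes are not independent replicates.

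**Figure D1:**
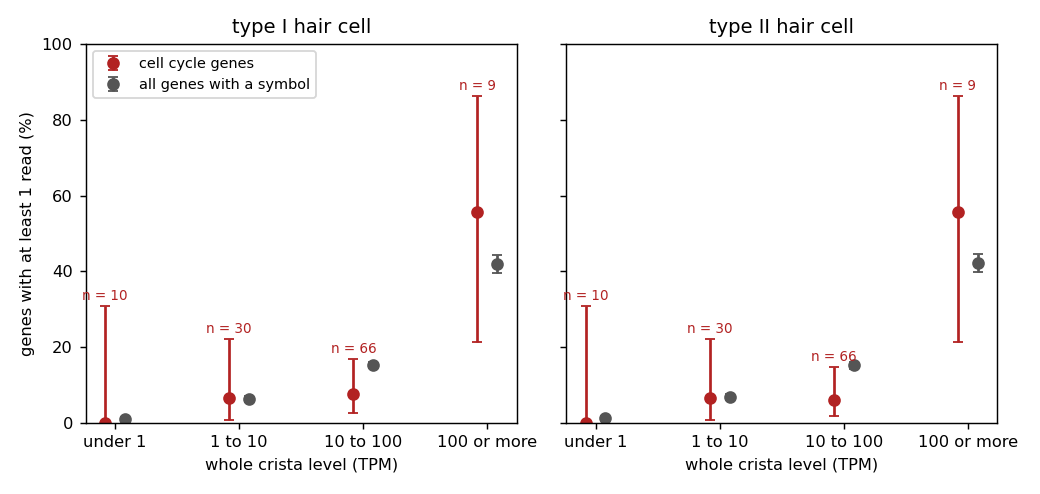
Share of genes with at least 1 read in each hair cell (vertical axis, %) by their level in the whole crista (horizontal axis, TPM), for the cell cycle genes (red, with the number of genes n) and for all genes with a symbol (grey). Bars are exact binomial 95% intervals. In the band from 10 to 100 TPM the cell cycle genes lie at 7.58% and 6.06%, against 15.3% and 15.2% of all named genes. The type I interval in that band includes the share of all named genes. At 100 TPM or more the cell cycle genes lie at 55.6% in each cell, against 42.0% and 42.3%.

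Most of these reads in the hair cells came from 3 genes, *CENPX*, *CDKN1B* and *CCNDBP1*, which held 97.1% of the summed TPM of the 115 genes in the type I cell and 96.2% in the type II cell, but 10.5% in the crista. The summed level of all 115 was 3170, 3227 and 4696 TPM in the type I cell, the type II cell and the crista, and without the 3 genes it was 90.8, 121 and 4201 TPM. The sums in the hair cells thus rest on these 3 genes, which are also the highest of the 115 there. Compared gene by gene, with at least 10 reads in the higher library and the limit of 3 reads for a library with fewer, 104 of the 115 were at least 2-fold lower in both hair cells than in the crista (90.4%), against 75.2% of named genes. Among the 75 genes with at least 10 TPM in the crista the count was 71 (94.7%), against 90.2%, so this too was close to the background. Of the 104 genes, 94 had no read in either hair cell, so for them the call restates that lack of reads. Only the same 3 genes were at least 2-fold higher in both hair cells (2.61%), against 3.79% of named genes. That call needs at least 10 reads in both hair cells, which 7 of the 115 genes and 1562 named genes had. Of those 1562, 572 were called higher. In bulk tissue, fewer cells of a type and less RNA per cell cannot be told apart, and a level in the crista may come from any of its cells. The scale also shifts between the libraries, since the named genes with at least 10 reads in both libraries had a median log2 TPM ratio to the crista of -0.31 in the type I cell and -0.25 in the type II cell, and 0.20 and 0.18 on reads scaled to library size (CPM).

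*CDKN1B* encodes the CDK inhibitor p27Kip1, which binds cyclin and CDK complexes and holds cells in G1. The gene (ENSGALG00010021960) lies on chromosome 1 from 72179462 to 72182992 in the RefSeq annotation of GRCg7b. It had 8954 reads in the type I cell, 11461 in the type II cell and 4474 in the more deeply sequenced crista, equal to 519 TPM (95% interval 508 to 530), 647 TPM (635 to 659) and 48.1 TPM (46.7 to 49.5). Both hair cells were thus far above the crista and close to each other. The ratio to the crista was 10.8 (10.4 to 11.2) in the type I cell and 13.5 (13.0 to 13.9) in the type II cell, or 3.43 and 3.75 on the log2 scale, beside the medians of -0.31 and -0.25 given above. A higher level was not particular to *CDKN1B*. Of the 1562 named genes with at least 10 reads in both hair cells, 572 were at least 2-fold higher there than in the crista. Among named genes *CDKN1B* ranked 353 and 317 in the hair cells and 3416 in the crista. It was the only one of the 8 CDK inhibitors and RB genes with a read in either hair cell (12.5%, exact binomial 95% interval 0.316 to 52.7). That share is near the 13.1% and 13.2% of all named genes. The length given for it in the files, 8671 bases, exceeds the 3531 bases of the RefSeq gene, which overlaps the protein-coding locus LOC121107608, so the reads counted for it may include some of its neighbour.

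*CENPX* encodes a small histone-fold protein that joins CENP-S, CENP-T and CENP-W at the centromere and also works with the FANCM helicase in DNA repair. The gene (ENSGALG00010029175, chromosome 18, 5628866 to 5637358) had 13573 reads in the type I cell, 11497 in the type II cell and 8604 in the crista. Its level was 1943 TPM (1910 to 1976), 1736 TPM (1704 to 1768) and 288 TPM (282 to 294), the highest of the 115 genes in either hair cell, at rank 89 and 117 of the named genes. The ratio to the crista was 6.74 (6.56 to 6.93) and 6.02 (5.86 to 6.20). Its partners *CENPS*, *CENPT* and *CENPW* had no read in either hair cell and 48.3, 10.8 and 116 TPM in the crista. *FANCM* and its partner *FAAP24* also had no read in the hair cells, at 3.79 and 2.09 TPM in the crista. Such a lack of reads was common. Of named genes with 10 to 100 TPM in the crista, 15.3% had a read in the type I cell and 15.2% in the type II cell. The shares were 6.21% and 6.73% from 1 to 10 TPM, and 42.0% and 42.3% at 100 TPM or more. *CENPX* overlaps *ASPSCR1*, which had no read in the hair cells and 4631 in the crista.

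*CCNDBP1*, a helix-loop-helix protein that binds D-type cyclins and restrains cell growth, is the other gene of this kind (ENSGALG00010024512, chromosome 20, 7051707 to 7058557). It had 5934, 7043 and 7508 reads, or 617 TPM (602 to 633), 723 TPM (706 to 740) and 159 TPM (155 to 162) in the type I cell, the type II cell and the crista. The ratio to the crista was 3.89 (3.76 to 4.03) and 4.56 (4.41 to 4.71). These 3 genes were picked out by being higher than the crista in both cells, and they were 2-fold or more higher also on CPM.

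**Figure D2:**
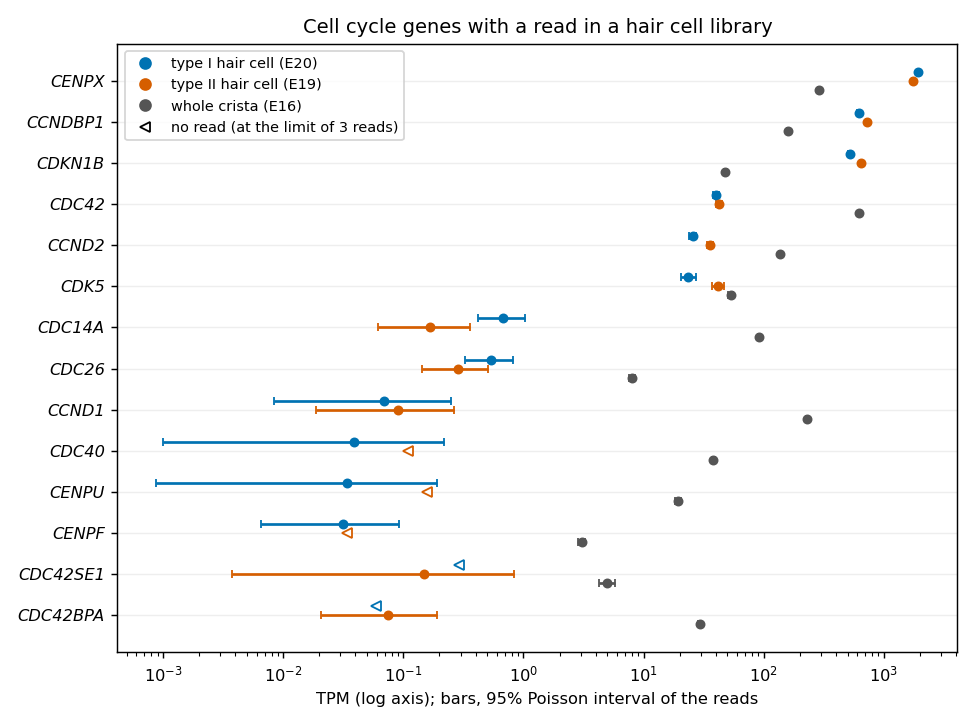
Level (TPM, log axis) of the 14 cell cycle genes with a read in a hair cell, in the type I cell (blue), the type II cell (orange) and the whole crista (grey), with exact Poisson 95% intervals as bars and open triangles at the limit of 3 reads where there was no read. The 2 hair cells lie above the crista for *CENPX*, *CCNDBP1* and *CDKN1B* and below it for the other 11 genes.

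Of the cyclins that drive the phases of the cycle, *CCND2* was the only one with more than a few reads in a hair cell. D-type cyclins bind CDK4 and CDK6 and lead to phosphorylation of the retinoblastoma protein. *CCND2* (ENSGALG00010024285, chromosome 1, 73569617 to 73614521) had 842 reads in the type I cell, 1316 in the type II cell and 11037 in the crista, or 25.6 TPM (23.9 to 27.4), 35.7 TPM (33.7 to 37.6) and 137 TPM (134 to 139). Its level was lower in both hair cells than in the crista, by a ratio of 0.188 (0.175 to 0.201) in the type I cell and 0.261 (0.246 to 0.276) in the type II cell. The effective length in the files was 3518 and 3701 bases for the hair cells and 1955 bases for the crista. On CPM, which uses no length and another library scale, the ratios were 0.477 and 0.673, still below 1. A low TPM ratio was not particular to *CCND2*. The housekeeping gene *GAPDH* stood at 0.190 and 0.220 of its crista level in the type I and the type II cell. For *ACTB* the ratios were 0.0846 and 0.104.

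*CCND1*, the other abundant D-type cyclin, differed from *CCND2* in this respect. It had 2 reads in the type I cell (0.242 to 7.22), 3 in the type II cell (0.619 to 8.77) and 18214 in the crista, where its 230 TPM made it the leading phase cyclin. The crista exceeded the type II cell 2528-fold (counting interval 865 to 12265), and the interval for the type I cell was 919 to 27414. The source of so few reads was not tested. Per length, *CCND1* thus exceeded *CCND2* 1.68-fold in the crista, while in the hair cells nearly all reads of D-type cyclins were of *CCND2*.

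*CDK5* had the smallest difference between the hair cells and the crista among the genes detected in all 3 libraries. This kinase needs an activating partner and is known mainly from postmitotic neurons. The gene (ENSGALG00010027166, chromosome 2, 317768 to 320658) had 194, 324 and 1660 reads, or 23.7 TPM (20.4 to 27.2), 41.9 TPM (37.5 to 46.8) and 53.2 TPM (50.6 to 55.8). The ratio to the crista was 0.445 (0.381 to 0.516) for the type I and 0.789 (0.698 to 0.889) for the type II cell, and the latter turned to 1.10 on CPM. The activator genes *CDK5R1* and *CDK5R2* had no read in either hair cell, and 1 and 28.7 reads in the crista.

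*CDC42*, a GTPase that organises actin and cell polarity, was the most abundant of the 115 genes in the crista. The gene (ENSGALG00010021807, chromosome 21, 6331454 to 6352716) had 971, 1074 and 69418 reads, or 40.1 TPM (37.6 to 42.7), 42.7 TPM (40.2 to 45.3) and 625 TPM (620 to 629). The crista exceeded the type I cell 15.6-fold (14.6 to 16.6) and the type II cell 14.6-fold (13.8 to 15.6). The hair cells were thus alike and well below the crista, as they were for the housekeeping gene *ACTB*, at 0.0846 and 0.104 of its crista level. Kinases and effectors that bind CDC42 were mostly not seen in the hair cells. *CDC42BPB* stood at 71.5 TPM in the crista with no hair cell read, and *CDC42BPA* had 4 reads in the type II cell alone. Most named genes with at least 10 TPM in the crista were likewise not seen, with 20.9% read in the type I cell and 20.9% in the type II cell.

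*CDC14A* encodes a phosphatase named for its part in leaving mitosis in yeast, and mutations of the human gene cause deafness. The gene (ENSGALG00010023710, chromosome 8, 11508824 to 11567952) had 21 reads in the type I cell, 6 in the type II cell and 10216 in the crista, or 0.677 TPM (0.419 to 1.03), 0.166 TPM (0.0611 to 0.362) and 90.8 TPM (89.0 to 92.5). The crista was 134-fold (87.7 to 217) above the type I and 545-fold (251 to 1487) above the type II cell. *CDC26*, a small subunit of the anaphase-promoting complex (ENSGALG00010027950, chromosome 17, 2150475 to 2154873), had 20.3, 11.1 and 1377 reads and 0.542, 0.286 and 7.99 TPM. Both genes were thus at a trace in the hair cells, and *CDC26* overlaps *SLC31A1*, which had no read in the hair cells and 10467 in the crista. The other 5 genes with a hair cell read and under 10 in each cell, besides *CCND1*, were *CENPF* with 3 reads, *CENPU* and *CDC40* with 1 each in the type I cell, and *CDC42BPA* with 4 and *CDC42SE1* with 1 in the type II cell.

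Between the type I and the type II cell, 8 genes had reads enough in at least 1 of them to be compared. For the 7 with at least 10 reads in both cells, a filter that leaves out *CDC14A*, the log2 TPM ratio, type I over type II, lay between -0.83 and 0.92, with a median of -0.23, so that 7 of 7 were within 2-fold. For the 1562 named genes with that many reads in both, the median was 0.10 with an SD across genes of 0.49, and 93.3% were within 2-fold, so the count of 7 is near the background. The lowest ratio was that of *CDK5*, at 0.564 (0.470 to 0.676), followed by *CCND2* at 0.719 (0.659 to 0.785), *CDKN1B* at 0.802 (0.780 to 0.824) and *CCNDBP1* at 0.854 (0.825 to 0.884), all lower in the type I cell. *CDC42* did not differ beyond its counting interval, at 0.940 (0.861 to 1.03), nor did *CDC26*, at 1.90 (0.860 to 4.35). *CENPX* was slightly higher in the type I cell, at 1.12 (1.09 to 1.15). At least 2-fold higher in the type I cell was *CDC14A* alone, at 4.07 (1.59 to 12.3), which is 0.870% of the 115 genes against 0.98% of named genes. At least 2-fold higher in the type II cell were 0 of the 115 genes, against 0.179% of named genes. The libraries did not separate at all in which abundant genes they held, since each of the 1305 named genes with at least 100 reads in either hair cell had a read in both. Cells of the same type were not compared with each other, as there was 1 cell of each.

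The remaining values are those of the crista, where the level of genes with a read ranged from 0.0541 to 625 TPM. Of the 115 genes, 9 stood at 100 TPM or more, 66 from 10 to 100, 30 from 1 to 10 and 10 below 1 TPM. Among the last, *CCNA1*, *CDK3*, *CDKN2B* and *CDC20B* had no read in any of the 3 libraries. In the same bands, from high to low, stood 1727, 6492, 3477 and 3401 of the 15097 named genes. The 97 genes read in the crista and in neither hair cell included 64 with at least 10 TPM and 4 with at least 100 TPM, which were *CDK2AP1* (346 TPM), *PCNA* (131 TPM), *CDK1* (130 TPM) and *CENPW* (116 TPM). A lack of reads was usual, as 12907 of the 15097 named genes had none in either hair cell. Of named genes with 100 TPM or more, 42.0% and 42.3% had a read in the type I and the type II cell.

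**Figure D3:**
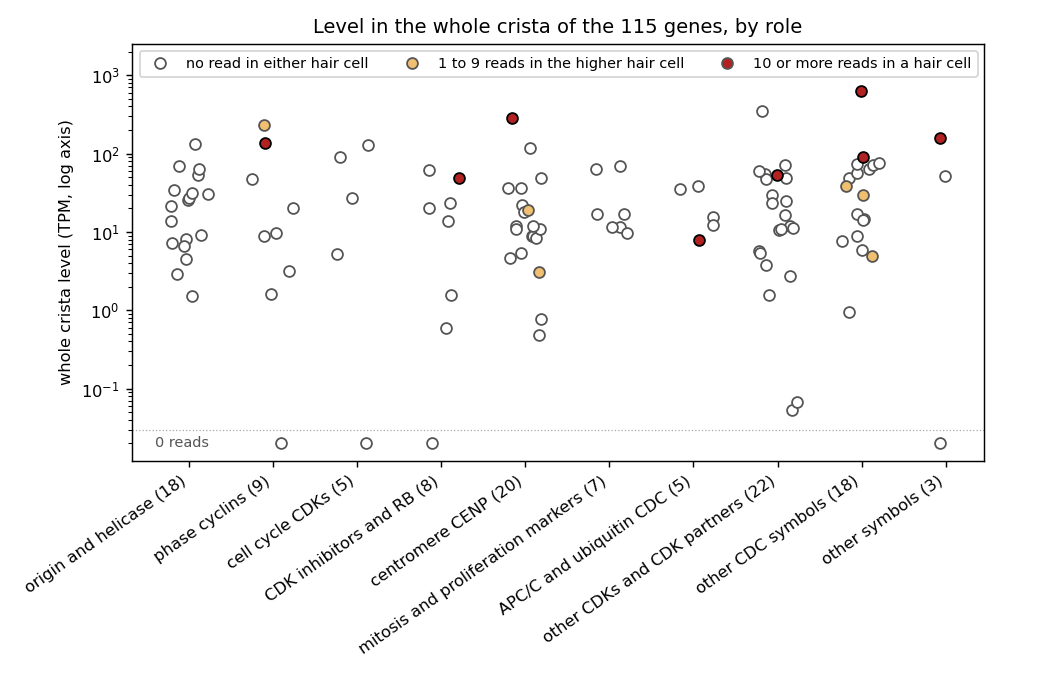
Level in the whole crista (vertical axis, TPM, log axis) of each of the 115 genes, by role (horizontal axis, number of genes in brackets), coloured by its reads in the hair cells. The 8 genes with 10 or more reads in a hair cell (red) are spread over 7 roles, and the 18 origin and helicase genes and 7 mitosis markers are white throughout; the 4 genes with 0 reads are drawn under the dotted line.

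The 18 genes of the origin and helicase list had 18 detected in the crista, at 1.53 to 131 TPM, and 0 in either hair cell (exact binomial 95% interval 0 to 18.5%), against 13.1% and 13.2% of named genes. At least 2-fold lower in both hair cells were 18 of 18, against 75.2% of named genes, or 90.2% of those with at least 10 TPM in the crista. The interval includes the background, so these counts are not a result about replication genes, and the counts by role below, over fewer or similar numbers of genes, are read against the same shares. *PCNA*, the sliding clamp of the replicative polymerases (chromosome 22, 388903 to 392002), led the list with 7054 reads and 131 TPM (128 to 134), which was at least 549-fold above the type I and at least 580-fold above the type II cell. The origin recognition complex, which marks the sites where replication can begin, was uneven in the crista. *ORC6* stood at 69.8 TPM and *ORC4* at 63.9 TPM, followed by *ORC3* at 31.0 and *ORC5* at 30.5 TPM, whose intervals overlap, *ORC1* at 26.8 TPM and *ORC2* at 4.52 TPM. Subunits that work together in equal numbers thus differed widely in transcript level.

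The MCM helicase unwinds DNA at the fork as a ring that holds 1 copy of each subunit. No gene in the data had the symbol of its subunit *MCM7*. In the crista *MCM6* (53.9 TPM, 52.6 to 55.2) exceeded *MCM5* (34.4), *MCM4* (25.4), *MCM2* (21.4) and *MCM3* (8.08 TPM, 7.64 to 8.53), with no overlap between neighbouring intervals. *CDC45*, which completes the active helicase, stood at 13.7 TPM, and *CDC7*, the kinase that fires origins, at 9.25 TPM. The lowest levels were those of *CDC6*, the loader of the MCM ring, at 2.87 TPM with 101 reads, and *MCM10* at 1.53 TPM with 316 reads. *MCM8* and *MCM9*, which serve in recombination, were at 7.27 and 6.62 TPM.

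Cyclins and kinases of several phases of the cycle were read in the crista, though no gene in the data had the symbol *CCNB2* or *CDK4*. After *CCND1* and *CCND2* came *CCNB1*, the cyclin of entry into mitosis, at 46.9 TPM, *CCNB3* at 20.4 TPM, and *CCNE1* and *CCNA2*, the cyclins of the start and course of S phase, at 9.62 and 8.84 TPM with overlapping intervals. *CCND3* stood at 3.21 TPM and *CCNE2* at 1.60 TPM. Of 9 phase cyclins, 8 were at least 2-fold lower in both hair cells, against 75.2% of named genes. *CDK1*, the kinase of mitosis (ENSGALG00010009597, chromosome 6, 9395887 to 9403898), had 7175 reads and 130 TPM (127 to 133) in the crista. It had no read in a hair cell. The limit of 3 reads lies 1226-fold below the crista in the type I and 1304-fold in the type II cell. *CDK7*, which activates other CDKs and also serves in transcription, had 90.1 TPM, *CDK6* 26.8 TPM and *CDK2* 5.17 TPM. The list of 5 kinases had 4 detected in the crista, against 85.5% of named genes. In either hair cell 0 were detected, against 13.1% and 13.2% in the type I and the type II cell.

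Of the 8 genes that brake the cycle only *CDKN1B* had a read in the hair cells, so no order of levels can be given there. In the crista *CDKN1C*, the p57Kip2 inhibitor, led at 61.8 TPM (58.9 to 65.0), above *CDKN1B* at 48.1 TPM. They were followed by *CDKN3*, a phosphatase of CDKs, at 23.3 TPM, by *RB1* at 19.9 TPM and by *CDKN1A*, the p21Cip1 inhibitor, at 13.8 TPM. *CDKN1C*, *CDKN3*, *RB1* and *CDKN1A* had no read in either hair cell, at least 224, 109, 240 and 54.4-fold below the crista in the type I cell. The CDKN2 genes among the 8 were low throughout, with *CDKN2C* at 1.57 TPM from 90 reads and *CDKN2A* at 0.598 TPM from 22 reads in the crista. *CDKN2A* (chromosome Z, 83329906 to 83339835) and *CDKN2B* (chromosome Z, 83341829 to 83345255), which had no read at all, are neighbours. Of these 8 genes, 6 were at least 2-fold lower in both hair cells (75%) and 1, *CDKN1B*, higher. The share lower is near the 75.2% of all named genes.

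The CENP proteins form the centromere and the inner kinetochore. All 20 listed genes had a read in the crista, between 0.486 and 288 TPM, against 85.5% of named genes. At least 2-fold lower in both hair cells were 18, and 1 was higher, against 75.2% and 3.79% of named genes. Within their subcomplexes the genes stood at unequal levels in the crista. *CENPK* (36.2 TPM) exceeded *CENPH* (22.2), *CENPI* (8.43) and *CENPM* (5.35 TPM). *CENPU* (19.3 TPM) exceeded *CENPP* and *CENPQ*, both at 11.8 TPM with overlapping intervals, and *CENPO* (4.66 TPM). *CENPN* stood at 17.9 and *CENPL* at 10.9 TPM. The smallest CENP values in the crista were those of *CENPJ*, a centriole protein in spite of its symbol, at 0.771 TPM, and of *CENPA*, the centromeric histone, at 0.486 TPM from 4 reads. With so few reads *CENPA* could not be compared between the libraries. The motor *CENPE* and the large coiled-coil protein *CENPF* of the outer kinetochore were at 8.94 and 3.05 TPM.

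**Figure D4:**
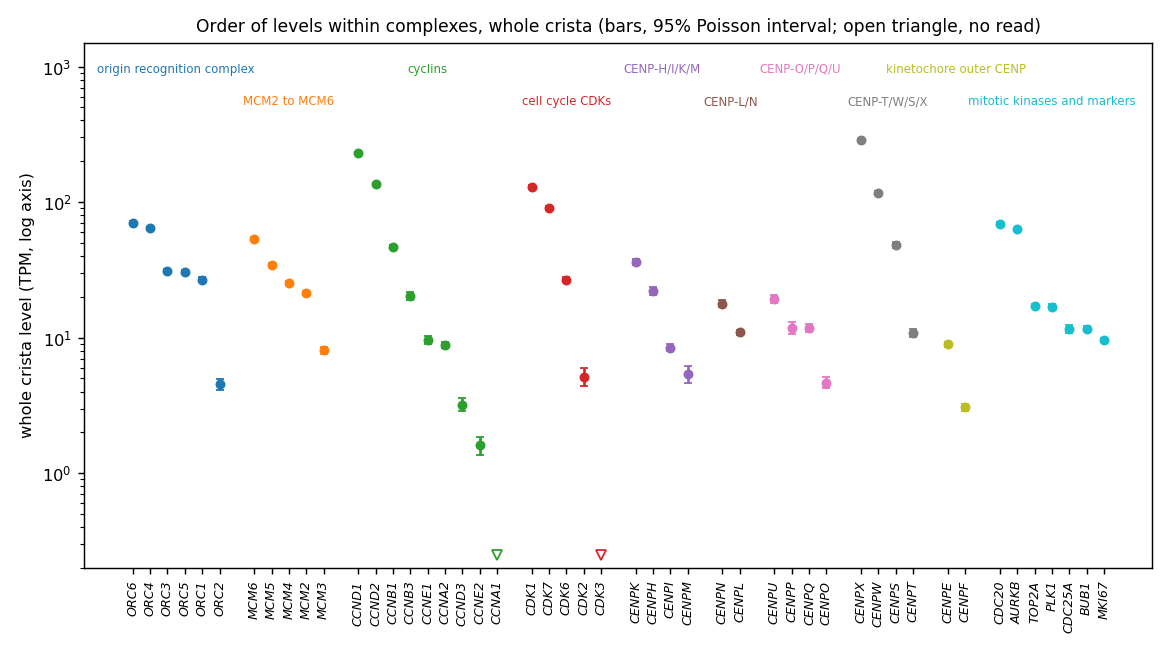
Level in the whole crista (vertical axis, TPM, log axis) of the genes of each complex or group, in falling order within it (horizontal axis, gene symbols), with exact Poisson 95% intervals as bars and an open triangle for no read. Neighbouring intervals overlap for *ORC3* and *ORC5*, *CCNE1* and *CCNA2*, *CENPP* and *CENPQ*, *TOP2A* and *PLK1*, and *CDC25A* and *BUB1*.

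Genes of mitosis and the usual proliferation markers had 7 of 7 detected in the crista and 0 of 7 in either hair cell (0 to 41.0%), against 13.1% and 13.2% of named genes, and 7 of 7 were at least 2-fold lower, against 75.2%. With 7 genes these counts cannot be set apart from the background. *CDC20*, the activator of the anaphase-promoting complex, stood at 69.5 TPM in the crista and the Aurora kinase annotated as *AURKB* (chromosome 20, 12362231 to 12369488) at 63.1 TPM. The latter gene overlaps *CSTF1*, and which Aurora kinase it encodes was not tested. *TOP2A*, the topoisomerase that untangles sister chromosomes, and the mitotic kinase *PLK1* were at 17.1 and 16.9 TPM. *CDC25A*, which activates CDKs, and the checkpoint kinase *BUB1* were both at 11.7 TPM. *MKI67*, the gene of the Ki-67 antigen by which dividing cells are commonly stained, had 3345 reads and 9.68 TPM (9.36 to 10.02), at least 251-fold and 268-fold above the hair cells. The order of these markers in the crista is that of transcripts per length and does not count cells.

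The 5 genes of the anaphase-promoting complex and of ubiquitin transfer had 5 of 5 detected in the crista, led by *CDC27* (38.0 TPM) and *CDC16* (35.3 TPM), and 5 of 5 were lower in the hair cells, where *CDC26* alone had reads. Of named genes, 85.5% were detected in the crista and 75.2% were lower in both hair cells. The genes that carry a cell cycle symbol but lie outside the cell cycle lists were at similar or higher levels in the crista. Their median was 23.2 TPM over 43 genes, against 14.7 TPM over the 72 genes of those lists. *CDK2AP1*, a regulator of chromatin and of CDK2, led them after *CDC42*, at 346 TPM and at least 1168-fold and 1231-fold above the hair cells. *CDC73* (75.8 TPM), of a complex that travels with RNA polymerase II, *CDC5L* (74.1 TPM), a splicing factor, and *CDKN2AIP* (71.0 TPM) had no hair cell read either. Of the 43, 38 were at least 2-fold lower in both hair cells and 1 higher, against 75.2% and 3.79% of named genes. In the type I and the type II cell 5 and 6 of the 43 were detected, against 13.1% and 13.2%. A listing at 0 in the hair cells was therefore common in both groups.

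A list of 123 other symbols of the pathway that the symbol rule does not reach matched 116 genes, since *CHEK2* names a pair of genes and some symbols had no match. Of these, 113 had a read in the crista, 1 in the type I cell (0.862%, exact binomial 95% interval 0.0218 to 4.71) and 2 in the type II cell (1.72%, 0.209 to 6.09), against 13.1% and 13.2% of named genes. These shares lay below that background, unlike those of the 115 genes chosen by symbol, but the list was drawn up with earlier results of these data known and the difference was not tested. At least 2-fold lower in both hair cells were 110 (94.8%), against 75.2%, and 1 was higher. The S phase list had 40 of 42 detected in the crista and 1 in each hair cell, the mitosis list 44 of 44 in the crista and 1 in the type II cell alone (*KIF20A*, 2.23 reads), and the list of cycle exit and checkpoint genes 29 of 30 in the crista and 0 in the hair cells. The gene that stood higher was *RPA3*, the smallest subunit of the trimer that coats single-stranded DNA. It had 11021, 13122 and 2365 reads, or 973, 1040 and 66.0 TPM, in the type I cell, the type II cell and the crista, whereas *RPA1* and *RPA2* had no hair cell read and 53.2 and 33.4 TPM in the crista.

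Markers of cell types other than hair cells were also read, mostly in the crista. In the crista 9 of 9 supporting cell markers were detected, with a summed 454 TPM, against 85.5% of named genes. In a hair cell 1 of 9 was detected, where *LFNG* had 1 read, against 13.1% and 13.2% of named genes in the type I and type II cells. Summed glial markers reached 3313 TPM in the crista and 73.7 and 89.4 TPM in the type I and type II cells, mesenchymal markers 2925 against 486 and 374 TPM, and markers of red blood cells 30059 TPM, of endothelium 134 TPM and of immune cells 363 TPM against 0 in the hair cells. Of 8 glial markers 7 were at least 2-fold lower in both hair cells, against 75.2% of named genes. The other, *SOX10*, had 70.8 and 86.7 TPM against 52.9 TPM in the crista. Of 8 mesenchymal markers 7 were lower, but *COL1A1* had 397 and 307 TPM against 356 TPM. With so few markers these counts cannot be set apart from the background. The part of each cell type in the crista values was not tested.

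The 115 genes each matched a single RefSeq gene and lay on 29 chromosomes, with 15 on chromosome 1, 14 on chromosome 3 and 9 on the Z. Of them, 34 overlap another protein-coding gene. The preparation does not mark the strand, so reads from a shared stretch cannot be told apart.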

How the data were processed

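RNA was measured in 3 libraries, 1 per group, and the depth of each is given above. The deposited tables give, per Ensembl gene, an estimated count that need not be whole and that the authors did not normalize between libraries, and a TPM value that the authors' pipeline scaled within the library. Per the file headers the deposited tables also hold a gene length and an effective length in bases. The whole-organ reads were processed with DRAGEN on Ensembl GRCg7b, as the study's methods state. For the single cells the pipeline is not given in the methods, and the submitters' processing notes list bcl2fastq 2.20.0.422, DRAGEN and the builds GRCg7b and galGal4 with no role.

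Deposited values were used as they stand, with estimated counts rounded for the intervals. Detection meant at least 1 read. A 2-fold difference needed at least 10 reads in the higher library, and a library with under 3 reads was set to the TPM of 3 reads. Levels have exact Poisson, shares exact binomial and ratios exact conditional 95% intervals. The members, role, pathway and marker lists and thresholds were chosen with earlier results of these data known, and the background of genes with at least 10 TPM in the crista was added after the values were seen. Named were the genes with at least 10 reads in a hair cell, the 15 highest in the crista, and the main cyclins, CDKs, inhibitors, ORC and MCM genes and markers. Others named, in the text and the closing section, were chosen after their values were seen. Gene positions come from RefSeq for GRCg7b, and no sequence is printed. Alternatives were other thresholds of detection, fold, floor and reads, CPM, CPM without mitochondrial genes (5.50, 7.38 and 0.879% of reads in the type I, type II and crista library), CPM scaled by the median ratio, and the cell cycle role lists alone. All steps were run in Python 3.11.15 (scipy 1.17.1, pandas 2.3.3, numpy 2.4.6; plots with matplotlib 3.10.9) and tested on simulated data. Patch-clamp and RT-PCR data were not analysed here.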

Additional observations from a re-analysis of the deposited data

How the results depend on the processing

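Each group had 1 library, so no library could be left out of a group. No paired analysis was possible because each group had 1 library. Where all 115 genes entered, stricter thresholds than 1 read lowered the counts of detected genes. In the type I cell 12 fell to 9 at 3 reads, 8 at 10 reads, 6 at 1 TPM and 6 at 10 TPM. In the type II cell 11 fell to 10 at 3 reads, 7 at 10 reads, 6 at 1 TPM and 6 at 10 TPM. Over the 72 genes of the cell cycle lists alone, 7 were detected in the type I cell, 5 in the type II cell, 5 in both and 69 in the crista, and 66 were at least 2-fold lower than the crista in both hair cells. The genes at least 2-fold higher in the type I cell numbered 2 in place of 1 at 1.5-fold, 2 on CPM and 2 with a floor of 1 read and a minimum of 3 reads, but 0 with a minimum of 50 reads and 0 over the cell cycle lists. Those higher in the type II cell numbered 1 in place of 0 at 1.5-fold and 1 with a floor of 1 read and a minimum of 3 reads. The count lower than the crista, 104, ranged from 100 to 105 under the other alternatives, and the count higher, 3, from 2 to 3 under all of them. The ratio of *CDK5* between the type II cell and the crista turned from 0.789 to 1.10 on CPM and 1.18 on CPM without mitochondrial genes. That of *CCND2* rose from 0.188 to between 0.351 and 0.501 in the type I cell and from 0.261 to between 0.534 and 0.721 in the type II cell. Of the 72 alternative values of 24 gene ratios, 69 stayed on the same side of 1. However, only 29 lay within the counting interval of the main ratio, and 13 moved over 1.5 times. The *CENPX* ratio of the type I cell to the crista, 6.74 in the main setting, lay between 7.25 and 10.4, outside its interval. Depth limits the genes with few reads: under 10 reads in both hair cells lay behind 6 of the 14 detected.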

Other observations

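The genes below lie outside those chosen by symbol and were picked after their values were seen, so nothing is drawn from how many of them were detected. As background, the type I cell had a read for 13.1% and the type II cell for 13.2% of all named genes. *SMC3*, an arm of the cohesin ring that holds sister chromatids together, had 8706 reads in the type I cell, 10810 in the type II cell and 5997 in the crista, or 240, 277 and 36.9 TPM, with a ratio to the crista of 6.51 and 7.51. The cohesin genes *RAD21*, *STAG1*, *STAG2* and *STAG3* had no read in either hair cell and 60.6, 14.6, 58.4 and 10.01 TPM in the crista. In the anaphase-promoting complex *ANAPC7* had 1359, 1433 and 3653 reads, or 45.4, 43.6 and 31.9 TPM, and *ANAPC10* had 151, 136 and 1410 reads, or 7.08, 5.32 and 33.8 TPM. *ANAPC1*, *ANAPC2*, *ANAPC4*, *ANAPC5*, *ANAPC11* and *ANAPC16* had no hair cell read, although *ANAPC16* stood at 240 TPM in the crista.

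Cyclins that the symbol rule leaves out also stood at unequal levels. *CCNI*, a cyclin known from postmitotic cells, had 9435, 7254 and 17652 reads in the type I cell, the type II cell and the crista, or 435, 333 and 173 TPM. *CCNT2*, which serves in transcription, had 58, 36 and 1769 reads. *CCNG1* and *CCNH* had no hair cell read and 126 and 182 TPM in the crista. The antiproliferative genes *BTG1* and *BTG2*, which are linked with leaving the cycle, also had no hair cell read and 655 and 157 TPM in the crista.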
